A study of Mus musculus with 12 samples.

Results

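The genes Cybb, Cyba, Ncf1, Ncf4, Rac2 and Nox4, which encode subunits of NADPH oxidases, were followed after intracerebral hemorrhage (ICH) or sham surgery at 2 ages in mice. Their rows were found by symbol in the deposited table and are 6 of its 54833 genes. RNA-seq was performed on the perihematomal tissue of the ipsilateral caudate putamen, or on the corresponding sham tissue, of male wild-type C57BL/6 mice 24 h after surgery. There were 4 groups of 3 samples. The young sham and young ICH mice were 8 to 10 weeks old, and the aged sham and aged ICH mice were 20 to 22 months old. In the ICH groups, type IV collagenase, an enzyme that digests the basement membrane of vessels, was infused into the right basal ganglia. The sham groups had the same operation with sterile saline. All mice were perfused with buffered saline before dissection. Each sample pooled the tissue of 2 or 3 mice, so the error given is the spread between pools.

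The phagocyte NADPH oxidase passes electrons from NADPH across a membrane to oxygen and thereby makes superoxide. Its membrane core in neutrophils, macrophages and microglia is a flavocytochrome made of the catalytic subunit gp91phox (Cybb, also called NOX2) and its partner p22phox (Cyba). On stimulation cytosolic subunits, among them p47phox (Ncf1) and p40phox (Ncf4), join this core together with the GTPase Rac2, the form of Rac found mainly in blood cells. NOX4 (Nox4) is a homolog of gp91phox that also pairs with p22phox but works without the cytosolic subunits, and it is best known from the kidney and the vessel wall.

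In the GRCm38 annotation (GENCODE vM21) all 6 are protein-coding genes. Cybb lies on chrX:9435252-9487771 on the minus strand and Cyba on chr8:122424776-122432930 on the minus strand. Ncf1 lies on chr5:134220053-134229625, also on the minus strand, and 408 bases of its exons overlap exons of Gtf2ird2 on the opposite strand. No source used here gives the strand setting of the counting, so reads from these bases could belong to either gene. Ncf4, on chr15:78244801-78262580 on the plus strand, and Rac2, on chr15:78559167-78572783 on the minus strand, share a chromosome and are 296586 bases apart. Nox4 lies on chr7:87246096-87398710 on the plus strand.

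Because Cyba, Ncf1, Ncf4 and Rac2 rose after ICH at both ages, sequence before start sites is shown where it was matched, with that of the catalytic subunit Cybb. RefSeq promoters (GRCm38.p6) were matched by symbol for 4 of the 6 genes, Cybb, Cyba, Ncf1 and Nox4, while those of Ncf4 and Rac2 were not used here. The RefSeq start of Cybb lies inside the span given above, which includes transcripts that begin further upstream. A window of 300 bases, 250 before the start and 50 after it, was searched on both strands for 3 motifs. These were GAGGAA, a core of sites of the myeloid factor PU.1, the interferon-type repeat, GAAA followed by any 2 bases and GAAA again, and an NF-kappaB-type site, GGGA followed by any base and TTTCC. The 250 bases before the start are printed 5′ to 3′ on the strand of the gene for the 3 phagocyte subunits matched, with motif matches in capitals.
Cybb, chrX:9469325-9469574, minus strand: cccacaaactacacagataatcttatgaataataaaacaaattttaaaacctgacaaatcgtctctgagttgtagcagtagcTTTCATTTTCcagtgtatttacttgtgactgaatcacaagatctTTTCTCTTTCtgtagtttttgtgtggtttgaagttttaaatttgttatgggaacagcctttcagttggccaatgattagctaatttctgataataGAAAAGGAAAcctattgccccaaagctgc
Cyba, chr8:122432941-122433190, minus strand: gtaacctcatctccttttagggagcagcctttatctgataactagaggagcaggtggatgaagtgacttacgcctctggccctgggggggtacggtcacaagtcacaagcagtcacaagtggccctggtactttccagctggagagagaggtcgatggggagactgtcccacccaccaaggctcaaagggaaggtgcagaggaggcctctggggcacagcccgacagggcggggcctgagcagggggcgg
Ncf1, chr5:134229626-134229875, minus strand: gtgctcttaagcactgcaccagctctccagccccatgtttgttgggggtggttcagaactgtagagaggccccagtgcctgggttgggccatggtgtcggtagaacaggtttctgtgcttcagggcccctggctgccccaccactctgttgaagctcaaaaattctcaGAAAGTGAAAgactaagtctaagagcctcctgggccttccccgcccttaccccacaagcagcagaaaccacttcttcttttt

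The Cybb window held 3 matches to the interferon-type repeat, 1 of them on the printed strand and the others on the reverse strand. It also held 1 match to GAGGAA on the reverse strand, which began 9 bases downstream of the start and so lies outside the printed stretch. The Ncf1 window held 1 match to the interferon-type repeat. The Cyba and Nox4 windows held none of the 3 motifs, and no match overlapped another. Of 32851 mouse promoters of the same length, 28.3% held GAGGAA, 3.44% held the interferon-type repeat and 0.411% held the NF-kappaB-type site. The printed stretch consists of G and C to 34.0% in Cybb, 54.4% in Ncf1 and 60.0% in Cyba. These matches describe the letters alone, since binding was not measured.

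Between 28410896 and 37785160 reads per sample were counted in genes, and 21495 genes passed the filter on low counts, all 6 oxidase genes among them. For Nox4 only 5 of the 12 samples held 10 or more counts, and 4 of these 5 were ICH samples. Its place among the tested genes therefore rested mainly on the ICH groups. The tissue label was checked with 7 genes of striatal neurons, among them Ppp1r1b, Drd1 and Drd2. All 7 were detected in every group, and their summed level ranged from 926 to 1644 CPM (counts scaled to the library size) in young sham and from 268 to 1023 CPM in young ICH. In aged mice it ranged from 820 to 1569 CPM after sham surgery and from 204 to 1193 CPM after ICH. In 3 ICH libraries, 6 markers of the choroid plexus, a tissue inside the ventricles, stood apart. Their summed level was 4054 CPM in young ICH replicate 3 and 1550 and 1965 CPM in aged ICH replicates 1 and 2, against 9.62 to 487 CPM in the other samples. Calls of the 6 oxidase genes that end without these libraries are named. Calls of other genes were not checked without them.

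Compared per length, as FPKM (fragments scaled by the length of the transcript and by the number mapped), Cyba was the most abundant of the 6 genes in all 12 samples. In young sham it stood at 5.03 ± 0.453 FPKM (SD, n = 3), followed by Ncf1 at 3.69 ± 0.254, Rac2 at 1.73 to 2.23 and Ncf4 at 0.905 ± 0.0455. Cybb, the catalytic subunit, was lower at 0.550 ± 0.213 FPKM, and Nox4 was the lowest at 0.0135 ± 0.00566. The group means kept the order Cyba, Ncf1, Rac2, Ncf4, Cybb, Nox4 in all 4 groups. In aged ICH the mean level was 13.7 ± 1.04 FPKM for Cyba, 6.62 ± 0.348 for Ncf1 and 3.74 ± 0.204 for Rac2. For Ncf4 it was 2.59 ± 0.0829, for Cybb 1.64 ± 0.534 and for Nox4 0.0452 ± 0.0204 FPKM. Neighbors in this order were separated in every group but aged sham. There Rac2 at 1.33 to 2.45 FPKM overlapped Ncf4 at 1.03 to 1.81, and Ncf4 overlapped Cybb at 0.320 to 1.17.

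**Figure D1:**
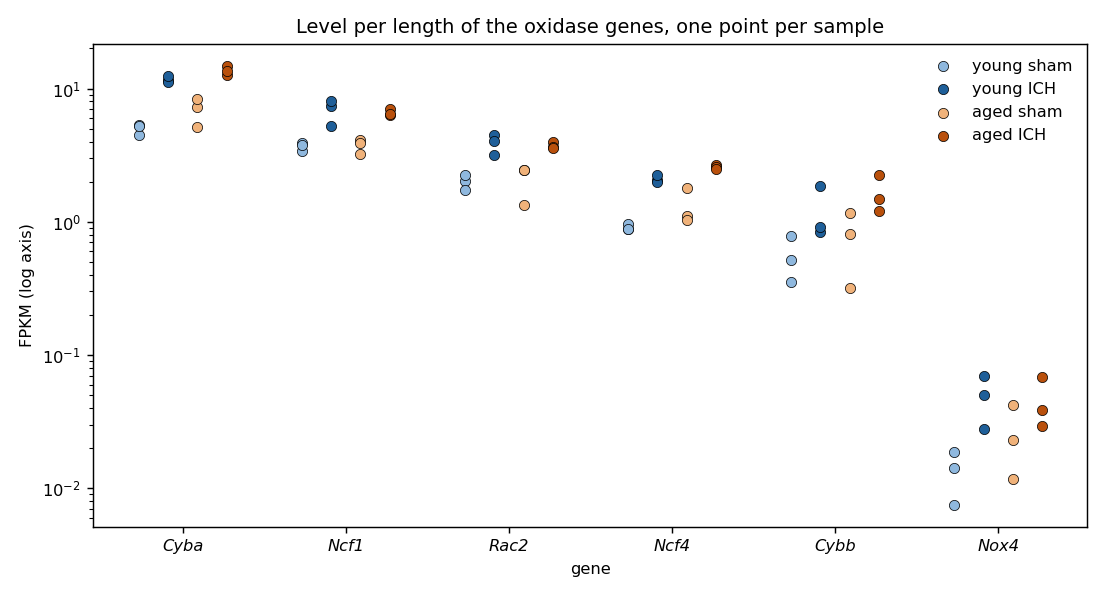
Level per length of the 6 subunit genes in FPKM (log axis), with 1 point per sample and 1 color per group. Cyba lies highest, between 4.51 and 14.8 FPKM, and every Nox4 point lies at or below 0.0696 FPKM.

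The make-up of the phagocyte oxidase transcripts was described by the share of each gene in the summed FPKM of Cybb, Cyba, Ncf1, Ncf4 and Rac2. Cyba made up 41.3 ± 0.838% in young sham, 45.5 ± 3.45% in young ICH, 46.6 ± 0.445% in aged sham and 48.4 ± 0.593% in aged ICH (SD, n = 3). Ncf1, the organizer subunit, made up 30.4 ± 0.935%, 26.5 ± 2.70%, 25.8 ± 3.42% and 23.5 ± 0.564% in the same order of groups. Cybb held between 4.45 and 5.74% in the group means. Shares of 1 sum move against each other and are given as a description. Within each sample, the log2 ratio of Cybb to Cyba and of Ncf1, Ncf4, Rac2 and Nox4 to Cybb was also compared between groups, in 20 tests. Exact two-sided permutation P values ran from 0.2 to 0.9, and all Benjamini-Hochberg adjusted values were 0.889 or more. The smallest P that 3 against 3 samples allow is 0.1, so no ratio could have passed the threshold.

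Young ICH vs. young sham asked what hemorrhage does to these genes in young mice. Cyba, Ncf1, Ncf4 and Rac2 rose after ICH, by 1.75-fold to 2.18-fold. The means of Cybb and Nox4 were higher too, but their adjusted P values were above 0.05. The count was thus 4 of 6 genes called higher, where 9.89% of all genes tested were. By the looser rule of a fold change over 1.5 with an unadjusted P under 0.05 it was 6 of 6, where 8.66% of all genes passed. Nox4 is counted there although it passed the filter on low counts mainly through ICH samples. The 6 genes and the gene lists below were chosen with earlier results of these data known. Their counts beside the share over all genes are therefore descriptions and no independent support. In bulk tissue, more cells that carry these subunits and more RNA per cell cannot be told apart.

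Of the membrane core, Cyba stood at 5.80, 4.92 and 5.64 CPM in the 3 young sham samples and at 11.8, 11.5 and 12.4 CPM in young ICH. The replicates lay close together and the groups were well apart. The fold change was 2.18 (log2FC 1.12 ± 0.15, SE, adjusted P = 0.00165). Cybb stood at 3.15, 2.16 and 4.69 CPM in young sham and at 4.82, 5.29 and 10.5 CPM in young ICH. Its groups only just did not overlap, and young ICH replicate 3, a library with high choroid plexus markers, was far above the other 2. The log2FC was 1.04 ± 0.46 (95% interval 0.05 to 2.04, adjusted P = 0.132), with an SE above the 0.15 of Cyba. Without young ICH replicate 3 the log2FC of Cybb was 0.60 (adjusted P = 0.424).

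Among the cytosolic subunits, Ncf1 stood at 14.9, 13.1 and 14.4 CPM in young sham and at 26.6, 19.1 and 28.5 CPM in young ICH (log2FC 0.81 ± 0.14, adjusted P = 0.00368). Replicate 2 was the lowest of the young ICH samples but still above every sham sample. Ncf4, whose product binds the phosphoinositides of the phagosome, stood at 1.85, 2.03 and 1.85 CPM in young sham and at 4.12, 3.99 and 4.41 CPM in young ICH (log2FC 1.13 ± 0.19, adjusted P = 0.00337). Its replicates lay close together in both groups. Rac2 stood at 6.60, 5.65 and 7.19 CPM in young sham and at 13.7, 9.82 and 12.2 CPM in young ICH (log2FC 0.88 ± 0.21, adjusted P = 0.0138). Without young sham replicate 2 its adjusted P was 0.0656.

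Nox4 held 6, 4 and 2 counts in young sham and 20, 7 and 13 counts in young ICH, or 0.166, 0.127 and 0.0660 CPM against 0.580, 0.233 and 0.410 CPM. The groups did not overlap, but they rest on very few reads. The log2FC was 1.73 ± 0.56 (95% interval 0.50 to 2.95, adjusted P = 0.0510), just above the threshold. In all, none of the 6 genes overlapped between young ICH and young sham, where 18.5% of the genes tested were higher without overlap. This count includes Nox4, whose place among the tested genes rested mainly on ICH samples.

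**Figure D2:**
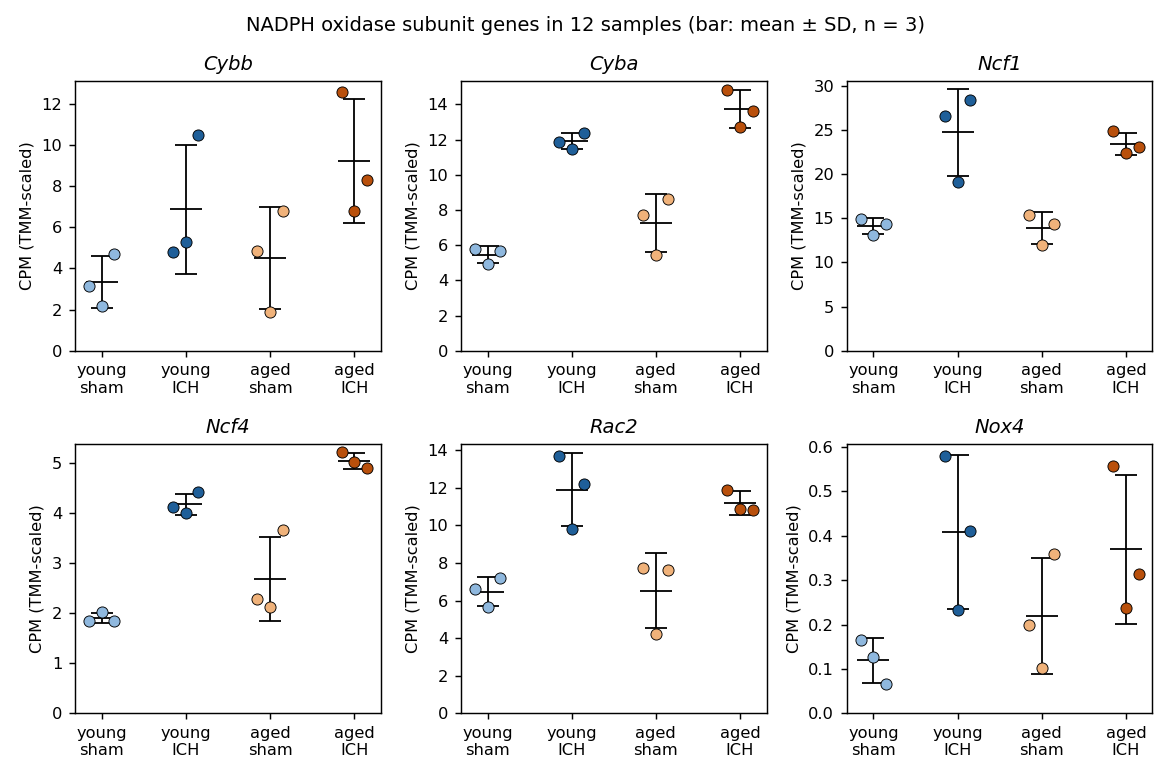
CPM of the 6 genes in each of the 12 samples, scaled by TMM factors, with the mean and SD of each group of 3 as black bars and the vertical axis starting at 0. For Cyba, Ncf1, Ncf4 and Rac2 all ICH points lie above all sham points of the same age, while Cybb and Nox4 scatter widely.

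Aged ICH vs. aged sham asked the same in aged mice. The same genes, Cyba, Ncf1, Ncf4 and Rac2, rose, by 1.68-fold to 1.89-fold, and Cybb and Nox4 again did not pass the test. This was 4 of 6 genes called higher, where 7% of all genes tested were. By the looser rule it was 5 of 6, with Cybb added, where 7.24% of all genes passed. These same 4 genes did not overlap between the groups, as was so for 17.8% of the genes tested, and Cybb and Nox4 did.

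Cyba stood at 7.71, 5.43 and 8.62 CPM in aged sham and at 14.8, 12.7 and 13.6 CPM in aged ICH (log2FC 0.92 ± 0.15, adjusted P = 0.00551). Cybb stood at 4.83, 1.89 and 6.80 CPM in aged sham and at 12.6, 6.77 and 8.30 CPM in aged ICH. The lowest ICH sample thus lay just under the highest sham sample, and aged sham replicate 2 was the lowest of all 12 samples. The log2FC of Cybb was 1.03 ± 0.45 (95% interval 0.05 to 2.01, adjusted P = 0.154).

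Ncf1 stood at 15.4, 11.9 and 14.4 CPM in aged sham and at 24.8, 22.4 and 23.0 CPM in aged ICH (log2FC 0.75 ± 0.14, adjusted P = 0.00845). Ncf4 stood at 2.28, 2.12 and 3.65 CPM in aged sham and at 5.21, 5.01 and 4.90 CPM in aged ICH (log2FC 0.90 ± 0.19, adjusted P = 0.0117). Its aged sham replicate 3 stood above the other 2, as it did for Nox4. Rac2 stood at 7.75, 4.21 and 7.61 CPM in aged sham and at 11.9, 10.9 and 10.8 CPM in aged ICH (log2FC 0.78 ± 0.21, adjusted P = 0.0308). Nox4 held 6, 3 and 12 counts in aged sham and 20, 7 and 10 counts in aged ICH (log2FC 0.74 ± 0.52, 95% interval -0.40 to 1.87, adjusted P = 0.382). The groups overlapped for Nox4.

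Some calls in aged mice depended on single libraries. Without aged ICH replicate 1, only Cyba and Ncf1 stayed called, with a log2FC of 0.88 for Ncf4 (adjusted P = 0.0524) and 0.73 for Rac2 (adjusted P = 0.110). Rac2 also lost its call without aged ICH replicate 3 (log2FC 0.80, adjusted P = 0.0726) or without aged sham replicate 2 (log2FC 0.54, adjusted P = 0.0633). Without the 3 libraries with high choroid plexus markers, aged ICH was a single sample assumed to vary like the other groups. The count was then 0 in aged mice and 3 in young mice, where Rac2 lost its call (adjusted P = 0.0641). The values moved little, since the log2FC in aged mice was 0.92 for Cyba, 0.73 for Ncf1, 0.87 for Ncf4 and 0.73 for Rac2. The part of the choroid plexus markers in the results was not tested beyond this.

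**Figure D3:**
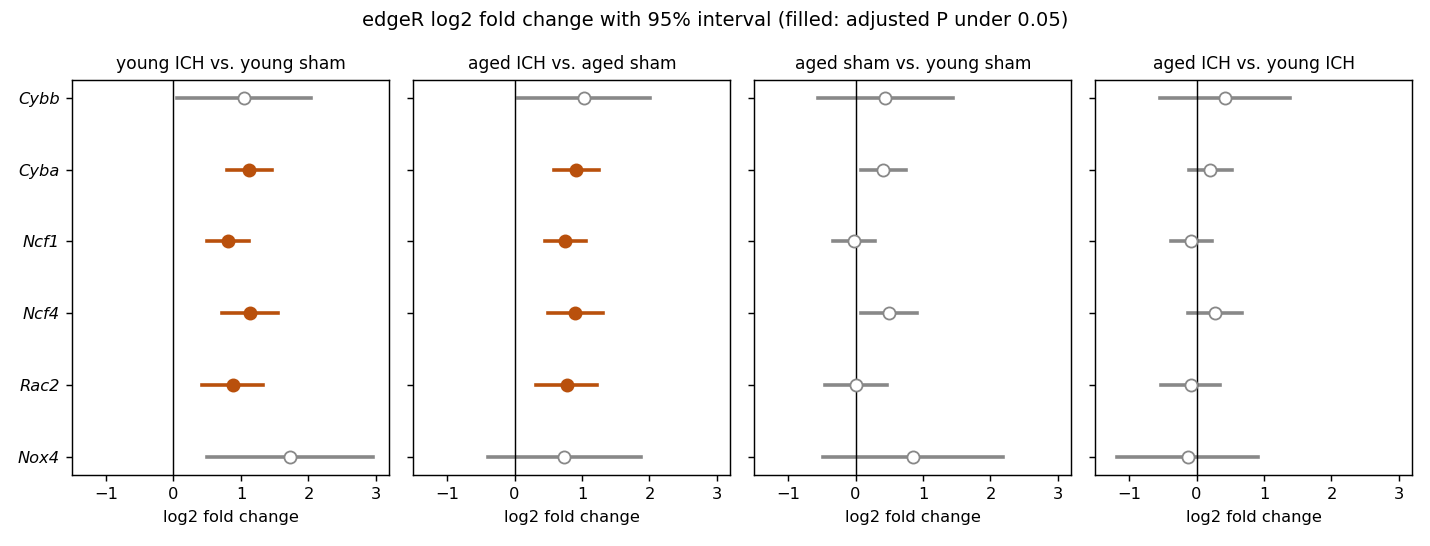
log2FC from edgeR (points) with 95% intervals (lines) for the 6 genes in 4 comparisons, filled where the adjusted P was under 0.05. Cyba, Ncf1, Ncf4 and Rac2 are filled in both ICH comparisons with log2FC between 0.75 and 1.13, and no point is filled in either age comparison.

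The change after ICH was then averaged over both ages in the same fit, a comparison chosen after the values had been seen. All 6 genes rose, where 16.7% of all genes tested did. Nox4 passed the filter on low counts mainly through ICH samples, so its place in this count is no support for a rise. Cyba rose 2.03-fold (log2FC 1.02 ± 0.11, adjusted P = 0.000114), Ncf4 rose 2.02-fold (adjusted P = 0.000294) and Ncf1 rose 1.72-fold (adjusted P = 0.000254). Rac2 rose 1.77-fold (adjusted P = 0.00147). With all 12 samples behind it, Cybb rose as well (log2FC 1.04 ± 0.32, adjusted P = 0.0273), and so did Nox4 (log2FC 1.23 ± 0.38, adjusted P = 0.0284). Both of these calls depended on single libraries. Without the 3 libraries with high choroid plexus markers the adjusted P was 0.176 for Cybb, at a log2FC of 0.74, and 0.161 for Nox4, at 1.11. Nox4 was also not called with limma on FPKM (adjusted P = 0.200), and without the 2 ICH libraries lowest in striatal markers, chosen after seeing the data, the adjusted P was 0.0669 for Cybb and 0.0516 for Nox4. Leaving out 1 sample at a time ended the call of Cybb in 5 of 12 cases (young ICH 3, young sham 1 and 2, aged ICH 1, aged sham 1), with adjusted P up to 0.0721. It ended that of Nox4 in 6 of 12 (young ICH 1, young sham 2 and 3, aged ICH 1, aged sham 1 and 2), with adjusted P up to 0.0877.

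Aged sham vs. young sham asked whether age alone changed the oxidase genes. None of the 6 was called by edgeR or by DESeq2, where edgeR called 0.102% of all genes. At an unadjusted P under 0.05 there were 2 of 6, where 12.3% of all genes were. These were Cyba (log2FC 0.41, 95% interval 0.08 to 0.75, adjusted P = 0.314) and Ncf4 (log2FC 0.50, 95% interval 0.08 to 0.92, adjusted P = 0.332). Ncf4 was the only one of the 6 without overlap, higher in aged sham, as were 9.81% of the genes tested. For Ncf1 the log2FC was -0.02 (95% interval -0.33 to 0.29) and for Rac2 0.01 (95% interval -0.45 to 0.47). Cybb at 0.44 (95% interval -0.56 to 1.44) and Nox4 at 0.85 (95% interval -0.48 to 2.18) were not resolved. Leaving out 1 sample moved Cybb between 0.016, without aged sham replicate 3, and 0.81, without aged sham replicate 2. It moved Nox4 between 0.30 and 1.18, without the same samples.

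Aged ICH vs. young ICH asked whether the injured tissue differed with age. Again 0 of 6 genes were called by edgeR or by DESeq2, where edgeR called 0.0558% of all genes, and 0 of 6 reached an unadjusted P under 0.05, where 9.54% of all genes did. Cyba had a log2FC of 0.21 (95% interval -0.12 to 0.53) and Ncf4 of 0.27 (95% interval -0.13 to 0.67). These were the genes whose aged ICH samples all lay above the young ICH samples, as was so for 6.9% of the genes tested. The log2FC was 0.43 (95% interval -0.53 to 1.39) for Cybb, -0.08 (95% interval -0.38 to 0.22) for Ncf1 and -0.09 (95% interval -0.53 to 0.35) for Rac2. For Nox4 it was -0.13 (95% interval -1.18 to 0.91). Both age comparisons share samples with both ICH comparisons, so their values are not independent of each other.

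Averaged over both operations, a comparison also chosen after the values had been seen, age gave 0 of 6 calls, where 1.27% of all genes were called. At an unadjusted P under 0.05 there were again 2 of 6, where 18.3% of all genes were. These were Cyba (log2FC 0.31, 95% interval 0.08 to 0.54, adjusted P = 0.157) and Ncf4 (log2FC 0.38, 95% interval 0.09 to 0.67, adjusted P = 0.159). DESeq2 also called 0 of 6. Without aged sham replicate 2, which was the lowest aged sample for all 6 genes, Cyba was called (adjusted P = 0.0426).

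Whether the change after ICH itself depended on age was tested with the interaction term, the difference of the log2FC in aged mice minus that in young mice. It was -0.21 for Cyba (95% interval -0.67 to 0.26), -0.06 for Ncf1 (95% interval -0.49 to 0.37), -0.22 for Ncf4 (95% interval -0.80 to 0.35) and -0.10 for Rac2 (95% interval -0.74 to 0.54). None of the 6 had an unadjusted P under 0.05, and all had an adjusted P of 0.99991. Over all genes edgeR called 0 (0%), with 606 genes or 2.82% at an unadjusted P under 0.05, and DESeq2 called 1. For Cybb the term was -0.02 (95% interval -1.38 to 1.35) and for Nox4 -0.99 (95% interval -2.68 to 0.70). A loss in aged mice as large as the log2FC in young mice lies within the interval for Cybb and Nox4 and outside it for the other 4 genes.

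Of 14 further genes of the oxidase family, 10 passed the filter, with 1 called higher and 0 lower in young mice (median log2FC 0.12, against 0.02 over all genes), where 9.89% of all genes were higher. This was Rap1a, a small GTPase that copurifies with the flavocytochrome (log2FC 0.26 ± 0.07, adjusted P = 0.0188). In aged mice edgeR and DESeq2 called 0 of 10, where edgeR called 7% of all genes higher (median log2FC 0.09, against 0.00), with Cybc1 and Duox1 at an unadjusted P under 0.05, and Rap1a had a log2FC of 0.12 (adjusted P = 0.256). Cybc1 was alike at both ages, with a log2FC of 0.19 in young (adjusted P = 0.0964) and 0.23 in aged mice (adjusted P = 0.0629). The most abundant family genes were Rac1, the widespread Rac, with a mean of 233 CPM in young sham and 229 CPM in young ICH (log2FC -0.02, adjusted P = 0.801), and Poldip2, which binds p22phox (log2FC 0.07, adjusted P = 0.421). In aged mice Rac1 had a log2FC of -0.07 (adjusted P = 0.473) and Poldip2 of 0.08 (adjusted P = 0.428). Nox1, Nox3, Duox1 and Duox2 were low, with a mean of 0.515 CPM or less in every group.

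Genes that act upstream of the oxidase moved in both directions. Of 24, 15 were higher and 3 lower in young mice (median log2FC 0.73), where 9.89% and 9.23% of all genes were. In aged mice 10 were higher and 3 lower (median 0.67), where 7% and 6.15% of all genes were. Fcgr3, a receptor of antibody-coated particles, rose with a log2FC of 0.83 ± 0.09 in young (adjusted P = 0.000930) and 1.03 ± 0.09 in aged mice (adjusted P = 0.000744). C5ar1, the receptor of the complement fragment C5a, rose by a log2FC of 2.01 in young mice (adjusted P = 0.00406) and 1.67 in aged mice (adjusted P = 0.0129). Tlr4, the receptor of endotoxin, rose by 1.28 in young mice (adjusted P = 0.00390) and 1.13 in aged mice (adjusted P = 0.0102).

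Fpr2, a receptor of formyl peptides, rose by a log2FC of 2.06 in young mice (adjusted P = 0.00364) and had 0.97 in aged mice (adjusted P = 0.0509). Its log2FC was 1.86 in aged sham vs. young sham (adjusted P = 0.104) and 0.77 in aged ICH vs. young ICH (adjusted P = 0.446). The antibody receptor Fcgr1 rose by 1.14 in aged mice (adjusted P = 0.0113) and by 0.77 in young mice (adjusted P = 0.0384). Syk, a kinase behind antibody receptors, rose by 0.87 in aged mice (adjusted P = 0.00730) and by 0.78 in young mice (adjusted P = 0.00645). The genes that fell in young mice were Prkca, Prkcb and Pak1, all kinases. Prkca fell with a log2FC of -0.54 in young mice (adjusted P = 0.00390) and -0.47 in aged mice (adjusted P = 0.0116), and Prkcb, the most abundant gene of the list, with -0.53 (adjusted P = 0.00592) and -0.44 (adjusted P = 0.0193). Pak1, the next in abundance, fell in young mice (log2FC -0.42, adjusted P = 0.0486) and had -0.28 in aged mice (adjusted P = 0.198). In aged mice the third gene that fell was Prex1, an exchange factor of Rac (log2FC -0.19, adjusted P = 0.0307). The striatal neuron sum was below every sham sample of the same age in 4 of 6 ICH samples, with a median log2FC of its genes of -0.95 in young and -1.10 in aged mice and 0 of 7 called, and its part in these values was not tested.

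Enzymes that remove superoxide and peroxide were followed as the counterpart of the oxidase. Of 13, 6 were higher and 0 lower at each age (median log2FC 0.21 in young and 0.13 in aged mice), where 9.89% of all genes were higher in young and 7% in aged mice. The extracellular superoxide dismutase Sod3 rose with a log2FC of 1.09 ± 0.19 in young (adjusted P = 0.00409) and 1.04 ± 0.20 in aged mice (adjusted P = 0.00867), while Sod2, the abundant mitochondrial form, stood at 0.01 (adjusted P = 0.881) and -0.06 (adjusted P = 0.549). Txnrd1, thioredoxin reductase, rose by 0.48 (adjusted P = 0.00229) and 0.50 (adjusted P = 0.00439), and its substrate Txn1 by 0.41 (adjusted P = 0.00699) and 0.47 (adjusted P = 0.00727). Glutathione peroxidase Gpx1 rose by 0.50 (adjusted P = 0.00533) and 0.47 (adjusted P = 0.0110). The peroxiredoxins Prdx6 and Prdx1 rose by 0.46 (adjusted P = 0.00337) and 0.44 (adjusted P = 0.00406) in young mice. In aged mice both had a log2FC of 0.26, just past the threshold (adjusted P = 0.0472 and 0.04995). Apart from Sod3, these changes were under 1.5-fold.

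Most transcription factors of myeloid genes that were tested rose. Of 9 factors 8 were tested, with 7 higher in young mice (median log2FC 0.78), 8 higher in aged mice (median 0.97) and 0 lower at either age, where 9.89% of all genes were higher in young and 7% in aged mice. Cebpa rose with a log2FC of 1.12 ± 0.11 in young (adjusted P = 0.000546) and 0.98 ± 0.11 in aged mice (adjusted P = 0.00209), and Cebpb by 1.98 (adjusted P = 0.00221) and 1.93 (adjusted P = 0.00485). Runx1 rose by 1.04 (adjusted P = 0.00359) and 1.24 (adjusted P = 0.00427). Spi1, which encodes PU.1 and is named here only because its motif was searched, rose by 1.06 (adjusted P = 0.0112) and 1.01 (adjusted P = 0.0195). The NF-kappaB subunits Nfkb1 and Rela rose by 0.38 (adjusted P = 0.00729) and 0.51 (adjusted P = 0.00734) in young mice. In aged mice the log2FC was 0.37 for Nfkb1 (adjusted P = 0.0131) and 0.42 for Rela (adjusted P = 0.0237). Irf8 rose by 0.52 in young (adjusted P = 0.0181) and 0.62 in aged mice (adjusted P = 0.0126). The interferon-linked Irf1 had 0.37 in young mice (adjusted P = 0.180) and rose by 0.96 in aged mice (adjusted P = 0.00915). No gene of these 4 lists was called in either age comparison or in the interaction.

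**Figure D4:**
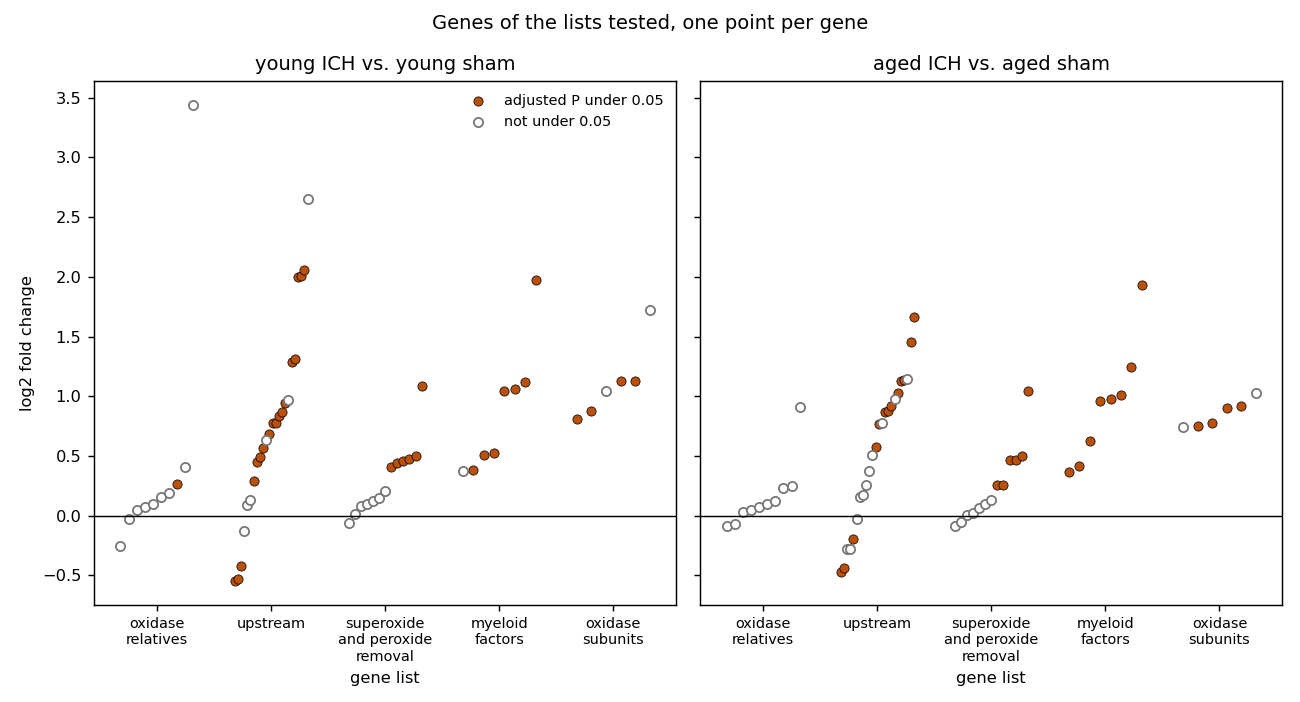
log2FC after ICH of every tested gene of the 4 pathway lists and of the 6 subunits, 1 point per gene sorted by value within its list, filled where the adjusted P was under 0.05. Of the family genes only Rap1a is filled, in young mice, whereas 15 of 24 upstream genes are filled above 0 in young mice and 10 of 24 in aged mice.

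The genes whose pattern over the 12 samples was most like that of each subunit were found by the root mean square difference (RMS) of log2 CPM, each gene centered on its own mean. Rac2 was most like Ptprc, the leukocyte antigen CD45 (RMS 0.105), followed by Hcls1 (0.119) and Lcp2 (0.124). Cyba was most like the Toll-like receptor gene Tlr13 (0.104), Stat3 (0.111) and Il13ra1 (0.115), and Ncf1 like Hmgb2 (0.0967), Tmem176a (0.103) and Slc39a1 (0.112). Ncf4 was most like Acat3 (0.139), Akap12 (0.147) and Birc3 (0.152). For Cybb the nearest genes were farther off, Tlr2 at 0.211, Casp4 at 0.246 and Fcgr4 at 0.249, and for Nox4 farther still, Gm37255 at 0.271, Cacng5 at 0.304 and Psd4 at 0.309. Among the subunits themselves, Cyba and Ncf4 (0.144) and Ncf1 and Rac2 (0.154) were the closest pairs, whereas Cybb stood 0.419 from Cyba, its partner in the membrane. The RMS grows with the scatter of a gene. Its median to all tested genes other than the subunits was 0.823 for Cybb and 0.742 for Nox4, against 0.484 for Ncf1 to 0.615 for Ncf4. The larger distances of Cybb and Nox4 therefore do not show a pattern of their own. All genes share the 12 libraries, and these values are descriptions.

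Markers of some of the cells that could carry the subunits were also higher after ICH. As a background to the marker counts, 9.89% of all genes were called higher in young mice and 7% in aged mice, and 9.23% and 6.15% were called lower. The summed CPM of the 6 subunits was 28.0 to 33.8 in young sham, 50.0 to 68.4 after young ICH, 25.7 to 41.4 in aged sham and 58.0 to 69.9 in aged ICH. The sum of 8 general myeloid markers, such as Tyrobp, Cd68 and Ptprc, was 232 to 271, 280 to 331, 232 to 264 and 328 to 352 CPM in the same order. Of these 8 markers 5 were called higher in young mice (median log2FC 0.50) and 6 in aged mice (median 0.61), and 0 lower. The median log2FC of the 6 subunits was larger, 1.08 in young and 0.84 in aged mice. Aif1 (log2FC 0.13 in young and 0.24 in aged mice) and Csf1r (0.09 and 0.18) were called at neither age.

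Neutrophil markers were low. Their sum over 13 genes was 11.3 to 13.9 CPM in young sham, 22.1 to 40.2 after young ICH, 16.4 to 28.0 after aged sham surgery and 40.8 to 57.4 after aged ICH, with 7 of 9 tested genes higher in young mice and 6 of 9 in aged mice. The median log2FC of the tested genes was 3.08 in young and 1.49 in aged mice. In aged sham vs. young sham it was 2.50, with 0 of 9 called, against 0.01 over all genes. Ly6g, a defining neutrophil gene, held 0 to 4 counts in each sample, and Elane held 0 counts in all young samples. The sum of 9 genes used as monocyte markers, among them Ccr2, Fn1 and Vcan, was 136 to 151 CPM in young sham and 257 to 306 after young ICH. It was 109 to 187 in aged sham and 251 to 316 after aged ICH. Such a sum mostly follows its most abundant genes, and the part of each gene in it was not tested. The log2FC was 1.94 in young and 1.82 in aged mice for Ccr2, and 1.06 and 0.99 for Fn1. Single monocyte markers were higher for 5 of 9 genes in young and 4 of 9 in aged mice (median log2FC 1.53 and 1.46). Border macrophage markers were higher for 4 of 6 and 3 of 6 (median 1.46 and 1.12). Of the monocyte markers, Ly6c2, Plac8, Ms4a4c and Vcan were called at neither age. Vcan had a negative log2FC, -0.16 in young and -0.21 in aged mice.

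The homeostatic microglia sums overlapped between ICH and sham. The sum over 10 genes was 355 to 423 CPM in young sham and 363 to 441 after young ICH, 372 to 410 in aged sham and 369 to 436 after aged ICH. In young mice 0 of 10 were higher and 2 lower, and in aged mice 1 was higher and 2 lower, with P2ry12 (log2FC -0.70 in young and -0.85 in aged mice) and Siglech (-0.80 and -1.11) lower at both ages. The gene higher in aged mice was Fcrls (log2FC 0.65, adjusted P = 0.0233), which had 0.45 in young mice (adjusted P = 0.0711). For the other cells, 5 of 7 endothelial markers were higher in young mice and 3 of 7 in aged mice, 1 of 8 pericyte and smooth muscle markers at each age, and 3 of 6 astrocyte markers in young and 2 of 6 in aged mice, where 1 was lower. With so few markers, 0 or 1 called higher in the pericyte, T cell and microglia lists cannot be told from the share over all genes. Of the red blood cell genes, 3 of 5 were higher in young and 0 of 5 in aged mice. The summed level of these genes was 5.20 to 22.4 CPM in young sham and 29.0 to 121 CPM in young ICH. In aged mice it was 27.8 to 39.5 CPM after sham surgery and 24.3 to 82.0 CPM after ICH. Between the ages the sham ranges thus did not overlap, whereas the ICH ranges did. Of tested T cell markers, 1 of 5 was higher in young and 0 of 5 in aged mice, and the 1 tested B cell marker was not called at either age. The part of each of these cell types in the subunit values was not tested.

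**Figure D5:**
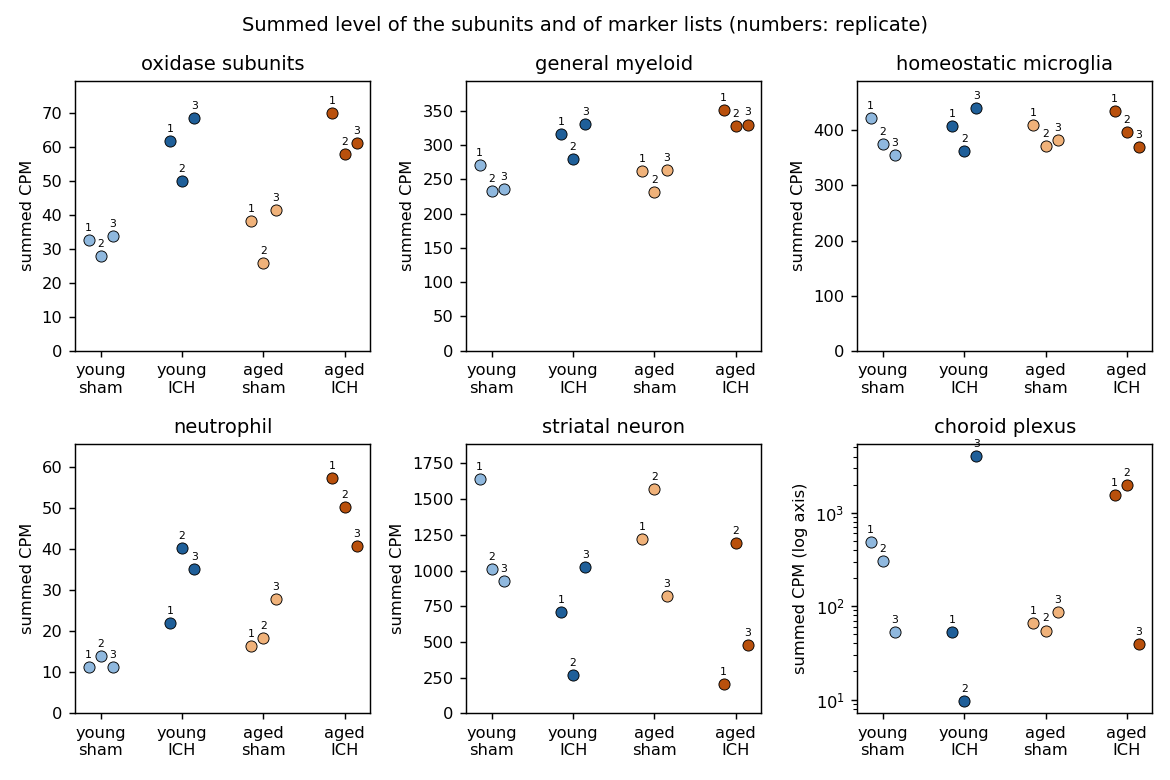
Summed CPM of the 6 subunit genes and of 5 marker lists in each of the 12 samples, numbered by replicate, with a log axis for the choroid plexus list. The subunits, general myeloid and neutrophil sums lie higher in ICH than in sham of the same age, the microglia sums overlap, and choroid plexus sums exceed 1000 CPM in 3 ICH samples.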

How the data were processed

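The authors aligned paired reads to GRCm38.p6 with HISAT2 and counted them per gene with featureCounts (Subread), as the submitters' processing notes name them. They deposited 1 table with the raw count and the FPKM of 54833 genes in each of 12 samples. Their FPKM scale each gene by the length of its transcript and each sample by its mapped fragments. All columns of per-sample values could be assigned from the labels.

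The 6 genes and all gene lists were chosen with earlier results of these data known. Counts were tested with edgeR 4.0.16 in R 4.3.3 (TMM, filterByExpr with a minimum count of 10, quasi-likelihood F test) over all 12 samples with 1 mean per group, and P values were Benjamini-Hochberg adjusted over 21495 genes. Called means an adjusted P under 0.05. The total counts per sample limit Nox4 most. CPM use TMM-scaled library sizes, and log2 CPM add a prior count of 2. Replicates are pools labelled as biological, and no pair within a group differed only by sampling noise. From each pathway list the text names every gene called, or the 5 with the smallest P where more were called, plus the 2 most abundant, and for each subunit the 3 genes with the most similar pattern. The edgeR script was tested on simulated data. Alternatives were RLE factors, DESeq2 1.42.0, no filter, only the groups compared, the study's criterion (fold change over 1.5 or under 0.67 with an unadjusted P under 0.05), limma 3.58.1 on log2(FPKM + 1), a replicate block and leaving out each sample. The behavioral and RT-qPCR measurements of the study were not analysed here. A few genes of the lists are not reported here and were left out of list counts and sums.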

Additional observations from a re-analysis of the deposited data

How the results depend on the processing

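Main counts of called subunits were 4 in young and 4 in aged mice. They were 4 and 4 with RLE factors, DESeq2, no filter and limma on FPKM, 4 and 3 with only the groups compared, and 6 and 5 by unadjusted P and fold change. The labels do not state that replicate numbers pair the samples. Of 18 same-number pairs 5 correlated over 0.1, with r from -0.45 to 0.23, against -0.37 to 0.41 in the 36 other pairs. A replicate block gave 5 and 5, with Nox4 in young mice (adjusted P = 0.0416) and Cybb in aged mice (adjusted P = 0.0436) added, and moved the calls over all genes from 22 to 12 in aged sham vs. young sham. Leaving out 1 sample gave 3 to 5 in young and 2 to 4 in aged mice, the lowest without aged ICH replicate 1. It gave 0 to 1 for age averaged over operations and 4 to 6 for ICH averaged over ages. Of alternatives chosen after seeing the data, leaving out the 3 libraries high in choroid plexus markers gave 3 and 0. Leaving out the 2 ICH libraries lowest in striatal markers gave 5 and 2.

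By unadjusted P and fold change, called list genes in young mice were 0 oxidase relatives (1 in the main test), 1 removal enzyme (6) and 4 myeloid factors (7). In aged mice they were 1 relative (0) and 1 removal enzyme (6). Over all genes, DESeq2 called 280 in aged sham vs. young sham, 189 in aged ICH vs. young ICH (edgeR 12) and 1082 for age averaged over operations (edgeR 273, with replicate block 127). Of 862 recomputed single-gene values, 788 kept direction and side of the threshold and 35 reversed, 0 of them in ICH vs. sham. None of the reversed values was called. With limma, Ncf1 in aged sham vs. young sham was 0.012 and the Cybb interaction 0.10. With the block, Rac2 in aged sham vs. young sham was -0.017 and the Cybb interaction 0.11. Without the 3 libraries, Ncf1 in aged ICH vs. young ICH was 0.011, the Cybb interaction 0.28 and the Ncf1 interaction 0.038. Without the 2 libraries, Cybb in aged ICH vs. young ICH was -0.021. Leaving out 1 sample, aged sham vs. young sham ran from -0.10 to 0.076 for Ncf1 and -0.13 to 0.24 for Rac2. Aged ICH vs. young ICH ran from -0.23 to 0.033 for Ncf1, -0.21 to 0.024 for Rac2 and -0.57 to 0.21 for Nox4. The interaction ran from -0.38 to 0.43 for Cybb, -0.21 to 0.055 for Ncf1, -0.37 to 0.065 for Ncf4 and -0.33 to 0.041 for Rac2. Age averaged over operations ran from -0.13 to 0.0052 for Ncf1 and -0.11 to 0.077 for Rac2. The cause was not tested.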
